A study of Mus musculus with 6 samples.

Results

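Members of the Wnt signalling pathway were examined in the chromatin of E11.5 mouse embryos, in sensory neurons sorted from the dorsal root ganglia (DRG). The members were the 47 protein-coding genes, of 21887 in the RefSeq annotation of GRCm38 used here, whose symbol is Wnt, Fzd, Sfrp or Dkk followed by a number, together with Lrp5, Lrp6, Ror1, Ror2, Ryk, Axin2, Lef1, Tcf7, Tcf7l1 and Tcf7l2. They comprised 19 Wnt ligands, 15 receptors (10 Frizzled genes and 5 others), 8 secreted inhibitors (4 Sfrp and 4 Dkk genes), and 5 genes of the nuclear response and its feedback. The cells were fixed with PFA and then sorted for GFP from embryos of Runx3-BAC-GFP-CB6 transgenic mice, in which a bacterial artificial chromosome carries the reporter, and are labelled TrkC proprioceptive neurons, the lineage that senses muscle stretch. The sort therefore holds whatever cells of the ganglion carried the Runx3 reporter at this stage, and no other genotype, age or treatment was compared. How many embryos were pooled for a sample is not given in the sources used here. The 6 samples were 2 libraries of open chromatin (assay for transposase-accessible chromatin, ATAC-seq), 2 of ChIP-seq for H3K27ac, the histone acetylation found at promoters and enhancers in use, and 2 of input DNA. The data were 1 consensus peak list per assay, so a gene either has a peak or does not, and neither a signal level nor a spread between the replicates can be given.

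Wnt proteins are secreted, lipid-modified ligands that bind Frizzled receptors on the same or neighbouring cells. With the co-receptors Lrp5 and Lrp6 they stabilise β-catenin, which acts in the nucleus with the Tcf and Lef DNA-binding factors, whereas Ror1, Ror2 and Ryk serve branches that do not need β-catenin and include axon guidance. Sfrp proteins bind the ligand, Dkk1 blocks Lrp5 and Lrp6, and Axin2 is a target gene whose product dampens the pathway. In the embryo the roof plate of the neural tube is a known source of Wnt1 and Wnt3a, and Wnt signals act on neural crest cells, from which DRG neurons arise.

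Of 10 markers of the labelled neurons that matched the annotation, 7 had H3K27ac at a gene end, here any peak reaching to 1 kb or less from either end of the annotated span, against 49.3% of all protein-coding genes. At least 1 acetylated open element lay inside or was assigned to 9 of the 10 markers, against 16.7% of all genes. The markers without H3K27ac at an end were Ntrk3, Prrxl1 and Runx3, the gene of the reporter. They had 3, 4 and 3 acetylated open elements inside the gene, and Ntrk3 and Prrxl1 had no ATAC at an end either. Among markers of other cell types, H3K27ac lay at an end of 5 of 6 glial and neural crest genes, 0 of 6 genes of the dorsal neural tube and roof plate, 1 of 6 mesenchymal, 0 of 5 endothelial and 1 of 5 blood genes. The glial list is thus the one non-neuronal list that carried the mark at most of its genes, with both marks at 3 of 6. ATAC lay at an end of 5 of 6 dorsal neural tube genes, so these were open there without H3K27ac. It lay at an end of 4 of 6 glial, 2 of 6 mesenchymal, 2 of 5 endothelial and 1 of 5 blood genes, against 60.4% of all genes. An acetylated open element was found for 0 of 6 glial and 0 of 6 mesenchymal genes. It was found for 1 of 6 dorsal neural tube, 2 of 5 endothelial and 2 of 5 blood genes. The part of glial cells in the values below was not tested.

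Promoter sequence was printed for the genes with most acetylated open elements (inside the gene or distal to it) where an ATAC peak overlapped the window, and for Wnt1 and Dkk1, chosen after their values were seen, as an open ligand promoter and an open inhibitor promoter without H3K27ac. Each is the 250 bases before a RefSeq start on GRCm38.p6, written in the direction of the gene. Capitals mark matches on either strand to the TCF/LEF core (CTTTGAA or CTTTGAT) or the RUNX core (TGTGGT or TGCGGT), and a sequence without capitals holds none of these words. The windows were chr3:131110047-131110296 (plus strand, Lef1), chr11:108920099-108920348 (plus strand, Axin2), chr7:98838595-98838844 (plus strand, Wnt11), chr19:55741560-55741809 (plus strand, Tcf7l2), chr7:89404116-89404365 (plus strand, Fzd4), chr15:98789607-98789856 (plus strand, Wnt1), chr19:30549497-30549746 (minus strand, Dkk1).
Lef1: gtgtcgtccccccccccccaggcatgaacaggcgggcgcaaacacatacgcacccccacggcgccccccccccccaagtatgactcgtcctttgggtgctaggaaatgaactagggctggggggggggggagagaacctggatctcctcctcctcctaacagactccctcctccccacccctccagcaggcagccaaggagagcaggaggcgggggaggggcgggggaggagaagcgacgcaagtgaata
Axin2: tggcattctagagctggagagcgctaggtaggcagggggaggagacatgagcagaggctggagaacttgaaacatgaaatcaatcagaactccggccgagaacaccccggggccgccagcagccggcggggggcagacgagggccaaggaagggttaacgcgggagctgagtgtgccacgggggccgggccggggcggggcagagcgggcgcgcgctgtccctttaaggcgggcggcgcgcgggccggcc
Wnt11: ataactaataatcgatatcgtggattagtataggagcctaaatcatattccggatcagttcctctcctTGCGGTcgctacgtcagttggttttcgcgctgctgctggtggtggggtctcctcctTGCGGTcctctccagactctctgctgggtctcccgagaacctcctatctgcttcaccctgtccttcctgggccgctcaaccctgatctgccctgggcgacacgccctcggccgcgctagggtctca
Tcf7l2: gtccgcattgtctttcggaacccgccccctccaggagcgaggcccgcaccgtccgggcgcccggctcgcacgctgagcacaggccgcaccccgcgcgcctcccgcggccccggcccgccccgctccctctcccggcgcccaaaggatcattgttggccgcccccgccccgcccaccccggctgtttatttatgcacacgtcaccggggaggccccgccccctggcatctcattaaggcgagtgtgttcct
Fzd4: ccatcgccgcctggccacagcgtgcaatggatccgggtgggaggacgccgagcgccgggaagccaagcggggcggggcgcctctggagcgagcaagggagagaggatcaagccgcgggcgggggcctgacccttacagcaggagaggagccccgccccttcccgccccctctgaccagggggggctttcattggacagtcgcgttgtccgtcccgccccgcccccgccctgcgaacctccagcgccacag
Wnt1: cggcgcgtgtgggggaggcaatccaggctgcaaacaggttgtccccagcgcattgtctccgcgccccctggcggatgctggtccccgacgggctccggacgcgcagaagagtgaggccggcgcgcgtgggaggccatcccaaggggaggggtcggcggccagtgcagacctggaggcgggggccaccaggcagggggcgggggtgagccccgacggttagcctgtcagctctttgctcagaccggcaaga
Dkk1: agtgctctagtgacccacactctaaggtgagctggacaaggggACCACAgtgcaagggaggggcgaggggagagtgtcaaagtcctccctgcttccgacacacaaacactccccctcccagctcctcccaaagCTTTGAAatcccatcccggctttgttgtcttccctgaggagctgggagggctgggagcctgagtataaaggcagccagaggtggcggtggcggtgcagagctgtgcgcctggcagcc

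The window of Lef1 is that of its most upstream start, and that of Wnt11 belongs to the downstream of its 2 starts. Both RUNX matches of Wnt11 read TGCGGT and begin 182 and 126 bases before the start. In the Dkk1 window a TCF/LEF match begins 117 bases before the start and a RUNX match, on the opposite strand, 207 bases before it. Over the 41 member windows, which belong to 33 genes, 3 (7.32%) held a TCF/LEF match and 5 (12.2%) a RUNX match, against 6.73% and 17.7% of the 21263 windows of all protein-coding genes in the table. The median ratio of observed to expected CpG was 0.78 for the 18 ligand starts, 0.755 for the 9 receptor starts, 0.627 for the 10 starts of nuclear and feedback genes and 0.544 for the 4 inhibitor starts, against 0.53 for all protein-coding starts. The medians of ligand and receptor starts were close to each other. These starts came from 15 of 19 ligands and 9 of 15 receptors, and a relation to the peaks was not tested.

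Ligands and receptors stood apart at their gene ends. H3K27ac was found at a gene end in 13 of 15 receptor genes (86.7%) and in 2 of 19 ligand genes (10.5%), a difference of 76.2 percentage points, and in 49.3% of all protein-coding genes. An ATAC peak lay there in all 15 receptor genes and in 11 of 19 ligand genes (57.9%), a difference of 42.1 points, and in 60.4% of all genes. Both marks were found at an end of 13 receptors, 2 ligands, 2 inhibitors and 3 of the nuclear and feedback genes, 20 of 47 members (42.6%) against 47.8% of all genes. Every member with H3K27ac at an end also had ATAC there, as did 10454 of the 10782 genes with that mark in the whole annotation. Among genes open at an end, H3K27ac also lay at an end in 86.7% of receptors, 18.2% of ligands and 25.0% of inhibitors. The share was 79.1% over all open genes, and the peaks need not overlap to be counted here. The share of acetylated ligands was well under that of all genes. The share of open ligands was near that of all genes at 1 kb but moved with the window: it was 36.8% within 0.5 kb, against 56.5% of all genes, and 84.2% within 2.5 kb, against 66.2%. Every gene of each family was counted, neighbouring Wnt genes are not independent, and genes are not replicates, so these shares are given without a test.

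**Figure D1:**
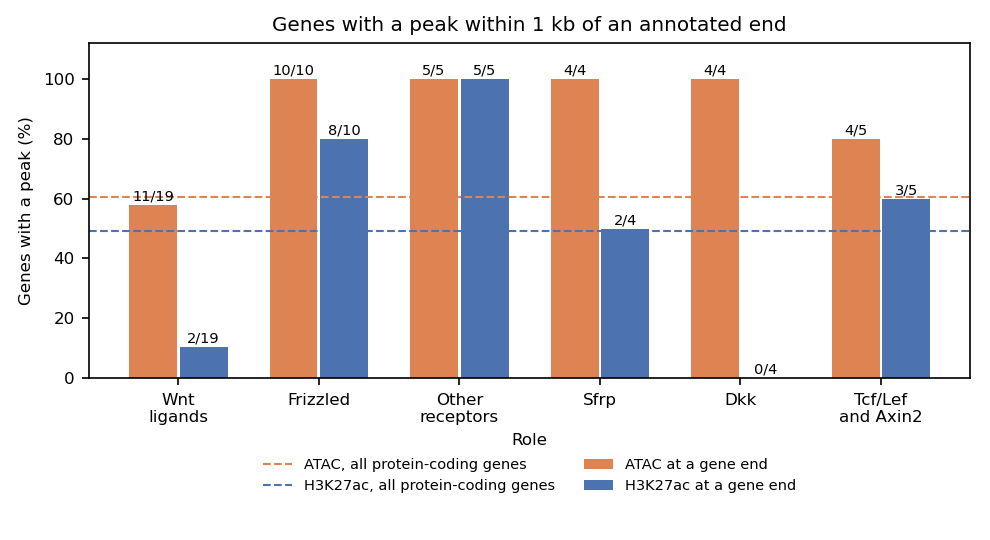
Share of genes in each role (x axis) with ATAC or H3K27ac at a gene end, to 1 kb (y axis, percent of genes), with the number of genes above each bar and the share of all protein-coding genes as dashed lines. H3K27ac marked 8 of 10 Frizzled genes and all 5 other receptors, but 2 of 19 ligands and none of the 4 Dkk genes.

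The 2 ligands with H3K27ac at an end were Wnt4, which acts in kidney and gonad development, and Wnt5a, the best known ligand of the β-catenin-independent branch. At Wnt5a (chr14:28504543-28527448) an H3K27ac peak of 1060 bp (chr14:28504821-28505880) overlapped an ATAC peak of 120 bp at the end and a second of 150 bp inside the gene, and another H3K27ac peak of 699 bp lay further inside. At Wnt4 (chr4:137277635-137299501) the H3K27ac peak was 350 bp wide, narrower than the widest end peak of all but 3.32% of acetylated genes, and stood 345 bp from the 311 bp ATAC peak without touching it. Wnt5a was therefore the one ligand of 19 with an open region at an end that itself overlapped H3K27ac, a state found in 13 of 15 receptors, 18 of 47 members and 46.4% of all genes. A further H3K27ac peak of 1354 bp without ATAC was assigned to Wnt4, 6954 bp from its nearest end to the centre of the peak.

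9 ligands were open at an end without H3K27ac: Wnt1, Wnt2, Wnt2b, Wnt6, Wnt7a, Wnt8a, Wnt9a, Wnt10a and Wnt16. They made up 47.4% of the ligands, and this state was found in 12.7% of all genes. At Wnt1, a signal of the dorsal neural tube, the ATAC peak of 387 bp (chr15:98789565-98789951) covered the start whose sequence is shown above, and the nearest H3K27ac peak was 26096 bp from the gene. The widest of these peaks, 629 bp, covered the start of Wnt2b. The narrowest, 99 bp, lay at Wnt7a, a ligand known for remodelling axon endings. Between them the widest end peak was 213 bp at Wnt2, 252 bp at Wnt6, 281 bp at Wnt16, 359 bp at Wnt9a, 427 bp at Wnt8a and 428 bp at Wnt10a. Wnt2 had a wider ATAC peak of 403 bp inside the gene (chr6:18030212-18030614), which covered its RefSeq start and had no H3K27ac. From the annotated ends of these 9 genes, the nearest H3K27ac peak was between 6085 bp (Wnt2b) and 57056 bp (Wnt16) away. For Wnt2, at 9039 bp, that peak lay inside the gene (chr6:17994513-17994842, 330 bp) and overlapped no ATAC peak. The widest ATAC peak at an end had a median of 311 bp over the 11 open ligands, 441 bp over the 15 receptors and 431 bp over all open genes.

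The remaining 8 ligands, Wnt3, Wnt3a, Wnt5b, Wnt7b, Wnt8b, Wnt9b, Wnt10b and Wnt11, had neither mark within 1 kb of an annotated end. None was without peaks altogether: each had at least 1 ATAC peak inside the gene or assigned to it. The annotated span can reach beyond the usual start, and RefSeq start sites were given for 15 ligands. Of these, 9 had ATAC and 1 (6.67%) had H3K27ac within 1 kb of a start, against 62.3% and 51.6% of all genes with a start in that table. Wnt11 and Wnt5b had ATAC at a start but not at an end, Wnt6 at an end but not at a start, and the acetylated ligand was Wnt4, since Wnt5a had no start in the table.

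**Figure D2:**
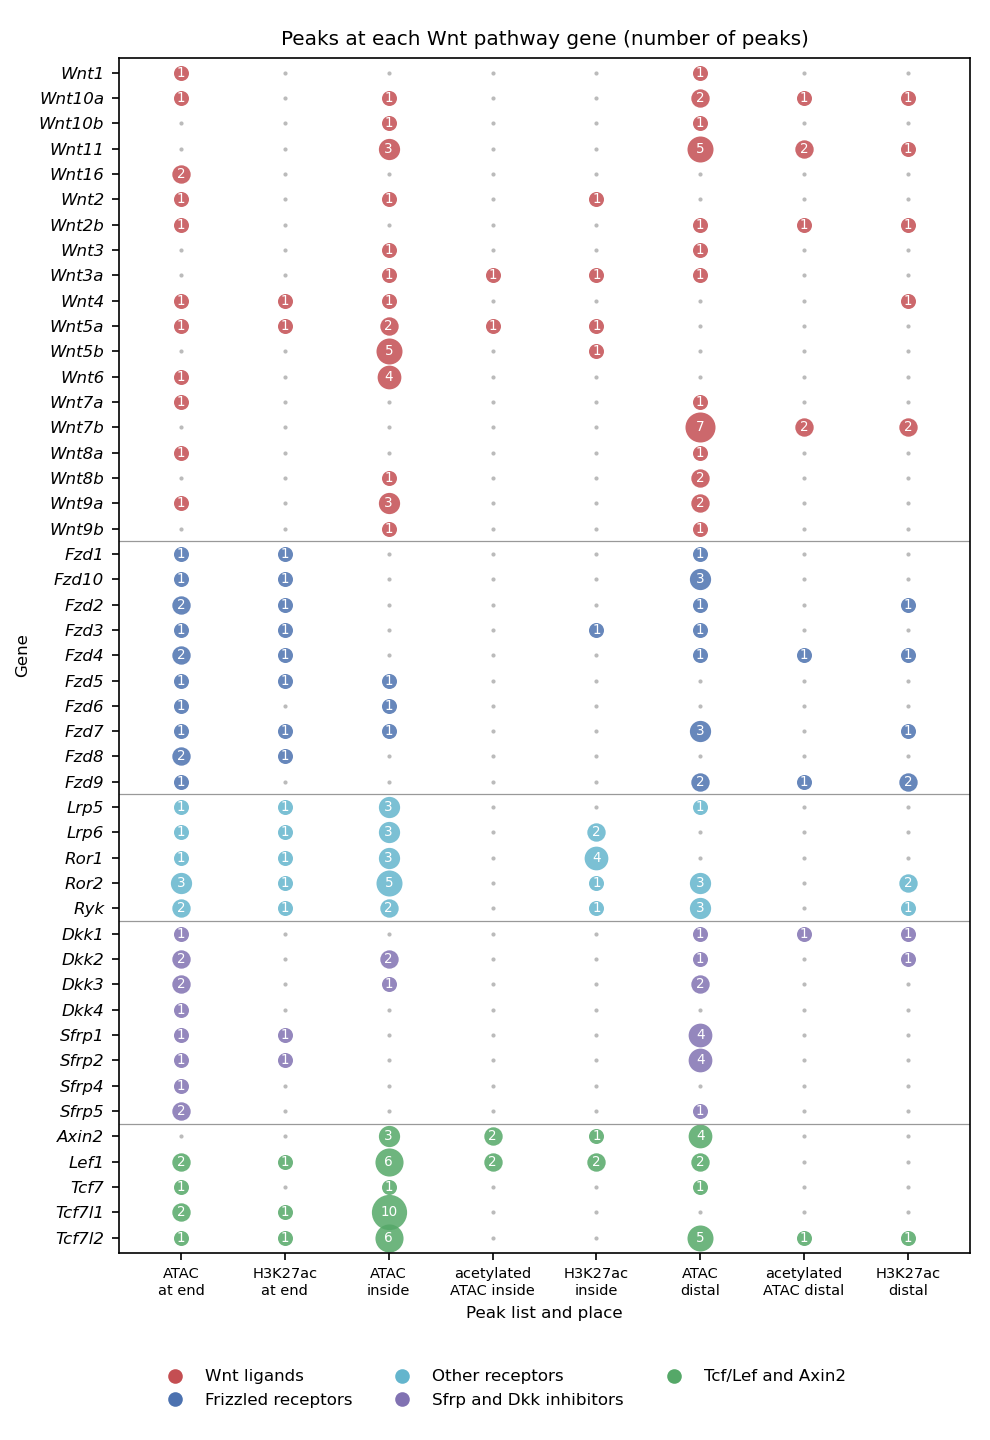
Number of peaks at each of the 47 genes (y axis, coloured by role) by peak list and place (x axis): at an annotated end, inside the gene, or distal and assigned to it. The circle grows with the number printed in it and a grey dot is 0. The column of H3K27ac at an end is filled for 13 of 15 receptors and for 2 of 19 ligands.

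H3K27ac was also far from the ends of most ligands. The distance from an annotated end to the nearest H3K27ac peak had a median of 26096 bp over the 19 ligands, compared with 1271 bp over all protein-coding genes. After Wnt4 and Wnt5a, at 126 and 278 bp, the next ligand was Wnt2b at 6085 bp, and the farthest was Wnt3 at 75913 bp. The median was 0 bp for both Frizzled genes and other receptors, because an acetylated peak covered an end. The receptors away from H3K27ac were Fzd9 at 7216 bp and Fzd6 at 38828 bp. The distances of the other 13 receptors were at most 121 bp, below that of every ligand.

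**Figure D3:**
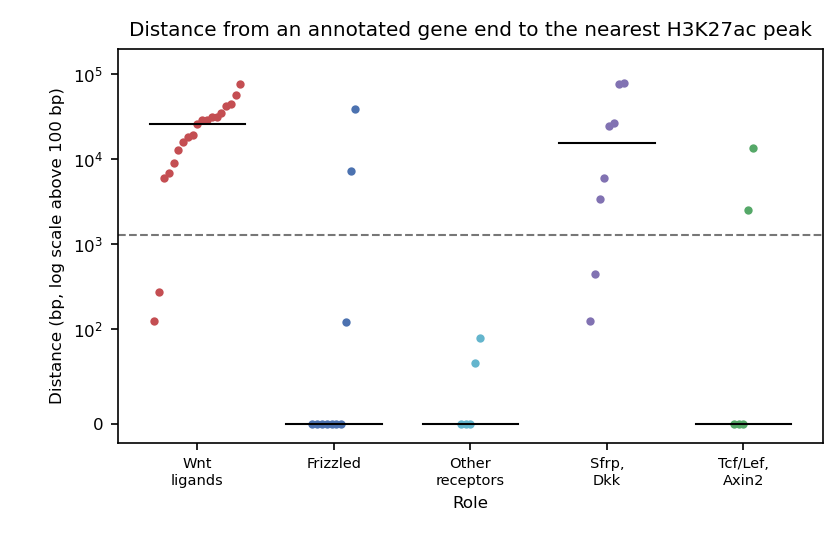
Distance from either annotated end of each gene to the nearest H3K27ac peak of any gene (y axis, bp, linear up to 100 bp and logarithmic above), by role (x axis), with 1 point per gene, black lines for the medians of each role and a dashed line for the median of all protein-coding genes. Most ligands lie above the dashed line and most receptors at 0.

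Frizzled receptors, which bind Wnt through their extracellular cysteine-rich domain, were all open at an end. 8 of 10 were acetylated: Fzd1, Fzd2, Fzd3, Fzd4, Fzd5, Fzd7, Fzd8 and Fzd10. The widest H3K27ac peak, 4027 bp at Fzd2 (chr11:102603327-102607353), spanned most of the short gene of 3628 bp and 2 ATAC peaks of 464 and 348 bp. It was as wide as or wider than the widest end peak of 97.6% of acetylated genes. Fzd3, which guides axons through the planar polarity pathway, had an H3K27ac peak of 2046 bp around an ATAC peak of 613 bp. The peaks of Fzd1, Fzd7, Fzd8 and Fzd10 were 1631, 1645, 1364 and 1737 bp wide. The narrowest, 424 bp, lay at Fzd5, with an ATAC peak of 581 bp. Fzd4, also a receptor for Norrin, had a peak of 1489 bp over 2 ATAC peaks, and one of its ends lies 337 bp from an end of Tmem135, so those peaks cannot be assigned to either gene alone.

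Fzd6, a planar polarity receptor of skin and hair, was open at an end (422 bp) and had no H3K27ac peak in any place. Fzd9 was open at an end (253 bp) and had 2 H3K27ac peaks outside the gene, of 751 and 216 bp. The narrower of these overlapped an ATAC peak of 151 bp whose centre was 13725 bp from the gene. Unacetylated Frizzled ends were thus found in 2 genes of different peak widths, the Fzd6 ATAC peak lying close to the median of 431 bp and that of Fzd9 below it.

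All 5 other receptors carried both marks at an end with overlapping peaks. Lrp6, the main β-catenin co-receptor of the embryo, had the widest ATAC peak of all members there, 886 bp (chr6:134566525-134567410), inside an H3K27ac peak of 1840 bp. Its relative Lrp5 had an ATAC peak of 266 bp and an H3K27ac peak of 1258 bp. Ryk, an atypical kinase receptor in axon guidance, had 2 ATAC peaks of 280 and 441 bp in an H3K27ac peak of 1247 bp. Ror1 and Ror2, the receptor tyrosine kinases that bind Wnt5a, had narrower H3K27ac peaks of 690 and 735 bp. Over the 13 acetylated receptors the widest end peak had a median of 1489 bp, close to the 1317 bp of all acetylated genes.

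**Figure D4:**
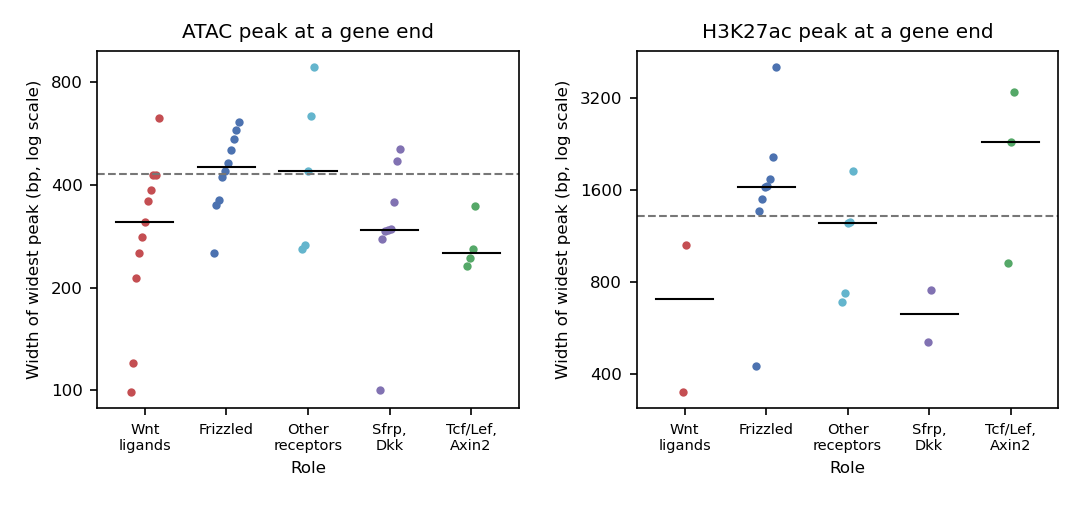
Width of the widest ATAC (left) and H3K27ac (right) peak within 1 kb of an annotated end (y axis, bp, log scale) by role (x axis), with 1 point per gene that has such a peak, black lines for medians and dashed lines for the median of all protein-coding genes with such a peak. The widest H3K27ac peak at an end lies at Fzd2 (4027 bp) and the narrowest at Wnt4 (350 bp).

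The secreted inhibitors were open at an end without the mark in 6 of 8 cases (75.0%), against 12.7% of all genes. All 8 had ATAC at an end, and 2, Sfrp1 and Sfrp2, had H3K27ac. At Sfrp2 an H3K27ac peak of 753 bp (chr3:83765875-83766627) overlapped an ATAC peak of 510 bp, and at Sfrp1 a peak of 508 bp began 20 bp beyond an ATAC peak of 470 bp. Sfrp4, Sfrp5 and the 4 Dkk genes had no H3K27ac at an end, and their widest ATAC peaks there measured 297 bp (Sfrp4), 357 bp (Sfrp5), 293 bp (Dkk1), 278 bp (Dkk2), 295 bp (Dkk3) and 100 bp (Dkk4). The nearest H3K27ac peak was 79726 bp from Dkk3 and 77690 bp from Dkk2. Dkk1, the best studied Lrp5 and Lrp6 antagonist, had its ATAC peak over its start, and a distal ATAC peak of 398 bp overlapped an H3K27ac peak of 376 bp (chr19:30539415-30539790) with its centre 6274 bp from the gene. An end of Dkk4 lies 101 bp from one of Polb.

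Among the nuclear genes, Lef1, Tcf7l1 and Tcf7l2 had both marks at an end and Tcf7 had ATAC alone (245 bp), with an end 331 bp from one of Skp1. Of the 3, Tcf7l2 had the widest H3K27ac peak, 3339 bp (chr19:55741249-55744587), and Lef1 had 2288 bp (chr3:131110193-131112480) holding 3 ATAC peaks. The peak of Tcf7l1, which acts mostly as a repressor, was 922 bp. Axin2 (chr11:108917828-108950783) had neither mark within 1 kb of its annotated ends, but its RefSeq start lies inside that span. There an ATAC peak of 296 bp (chr11:108920176-108920471) covered the start, and an H3K27ac peak of 2830 bp (chr11:108920380-108923209) began 31 bp from it and overlapped 2 ATAC peaks, the first and one of 289 bp (chr11:108921115-108921403). The gene also had an ATAC peak of 198 bp further inside and 4 distal ones, of 93 to 447 bp, none acetylated. With start sites in the table added to the annotated ends, 21 of 47 members (44.7%) had H3K27ac, against 52.4% of all genes. ATAC lay there in 41 members (87.2%), against 64.3% of all genes. This count was added after the data were seen. The counts of acetylated ligands and receptors stayed at 2 and 13.

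Away from gene ends the members were often open. An open element is an ATAC peak over 1 kb from every annotated gene end, counted inside a gene by its midpoint, or as distal where the nearest gene end is that of the member and lies within 100 kb. ATAC elements lay inside 28 of 47 members (59.6%, against 31.2% of all genes) and distal to 33 (70.2%, against 29.3%). The members had a median length of 26704 bp, against 17169 bp for all genes. The median was 22906 bp for ligands and 7193 bp for receptors. The bearing of length on the counts inside genes and at their ends was not tested. Distal counts can also depend on the distance to the nearest end of another gene, which was not tested. Among members that distance ran from 101 bp (Dkk4) to 441595 bp (Dkk2). The 143 pairs of a member and an element rested on 142 elements, since a peak of 140 bp lies inside Wnt9b and nearest to Wnt3, whose spans overlap.

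Few of these elements carried H3K27ac. Of the 143 pairs, 16 (11.2%) overlapped the mark, against 22.7% over all genes. The share was 8 of 51 for ligands (15.7%), 2 of 38 for receptors (5.26%), 1 of 16 for inhibitors and 5 of 38 for the nuclear and feedback genes. Acetylated elements lay inside 4 members (8.51%, against 11.7% of all genes) and distal to 8 (17.0%, against 6.57%). Several of those inside lay by a start, since elements were set apart by annotated ends only. Both of Axin2 and the acetylated Lef1 peak of 234 bp reached to within 1 kb of a RefSeq start. That of Wnt5a, 150 bp, overlapped the H3K27ac peak of its end. All genes were counted in the same way. A distal acetylated element was assigned to 4 of 19 ligands and 2 of 15 receptors, with 6 and 2 such elements in all. These small counts give no stable order of the families: within 500 kb they were 6 and 5. Acetylated elements had a median width of 347 bp and the others 166 bp, against 277 and 156 bp for all ATAC peaks away from gene ends.

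The ligands with acetylated elements outside the gene were Wnt7b and Wnt11 with 2 each, and Wnt2b and Wnt10a with 1 each. Wnt11, a ligand of cell movement in gastrulation, had an H3K27ac peak of 1939 bp (chr7:98814814-98816752) over ATAC peaks of 410 bp (chr7:98815092-98815501) and 465 bp (chr7:98815707-98816171), with its centre 19301 bp from the nearest annotated end. Its 3 ATAC peaks inside the gene, 98, 160 and 249 bp wide, and its other 3 distal ones were not acetylated. Wnt7b, known in lung and in vessels of the nervous system, had no peak inside the gene and 7 distal ATAC peaks, the highest number of distal peaks among the members. The ATAC peak of 256 bp, 44021 bp from the gene, overlapped an H3K27ac peak of 365 bp (chr15:85625877-85626241). That of 537 bp, 52847 bp away, overlapped one of 544 bp (chr15:85634762-85635305). At Wnt2b the ATAC peak was 417 bp wide (chr3:104967832-104968248) and 6331 bp from the gene. The Wnt10a element, 313 bp, was 12883 bp away. Inside genes, Wnt3a had an ATAC peak of 548 bp that overlapped an H3K27ac peak of 550 bp (chr11:59263948-59264497), though neither of its ends was open.

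The receptors Fzd4 and Fzd9 had 1 acetylated distal element each. That of Fzd4, an ATAC peak of 381 bp in an H3K27ac peak of 864 bp (chr7:89338295-89339158), lay 65630 bp from the gene and within Tmem135. Of 17 H3K27ac peaks inside or distal to receptors, 15 overlapped no ATAC peak, among them a peak of 2913 bp in Ror2 (chr13:53233694-53236606) and 4 peaks of 266 to 490 bp in Ror1. Over all members 21 of 33 such peaks lacked ATAC, and over all H3K27ac peaks away from gene ends 55.2% did. Tcf7l1 had the highest number of ATAC peaks inside a gene, 10 in 162675 bp, and none was acetylated. Lef1 had 6, of which 2 were acetylated: a peak of 234 bp under the H3K27ac peak of its end, and one of 179 bp (chr3:131137148-131137326) in an H3K27ac peak of 990 bp (chr3:131136684-131137673). A further H3K27ac peak of 560 bp in Lef1 (chr3:131133870-131134429) overlapped no ATAC peak. Tcf7l2 had 6 ATAC peaks inside, none acetylated, and 5 distal. Of these, 1 of 616 bp (chr19:56029409-56030024), 96057 bp from the gene, overlapped an H3K27ac peak of 750 bp (chr19:56029224-56029973).

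**Figure D5:**
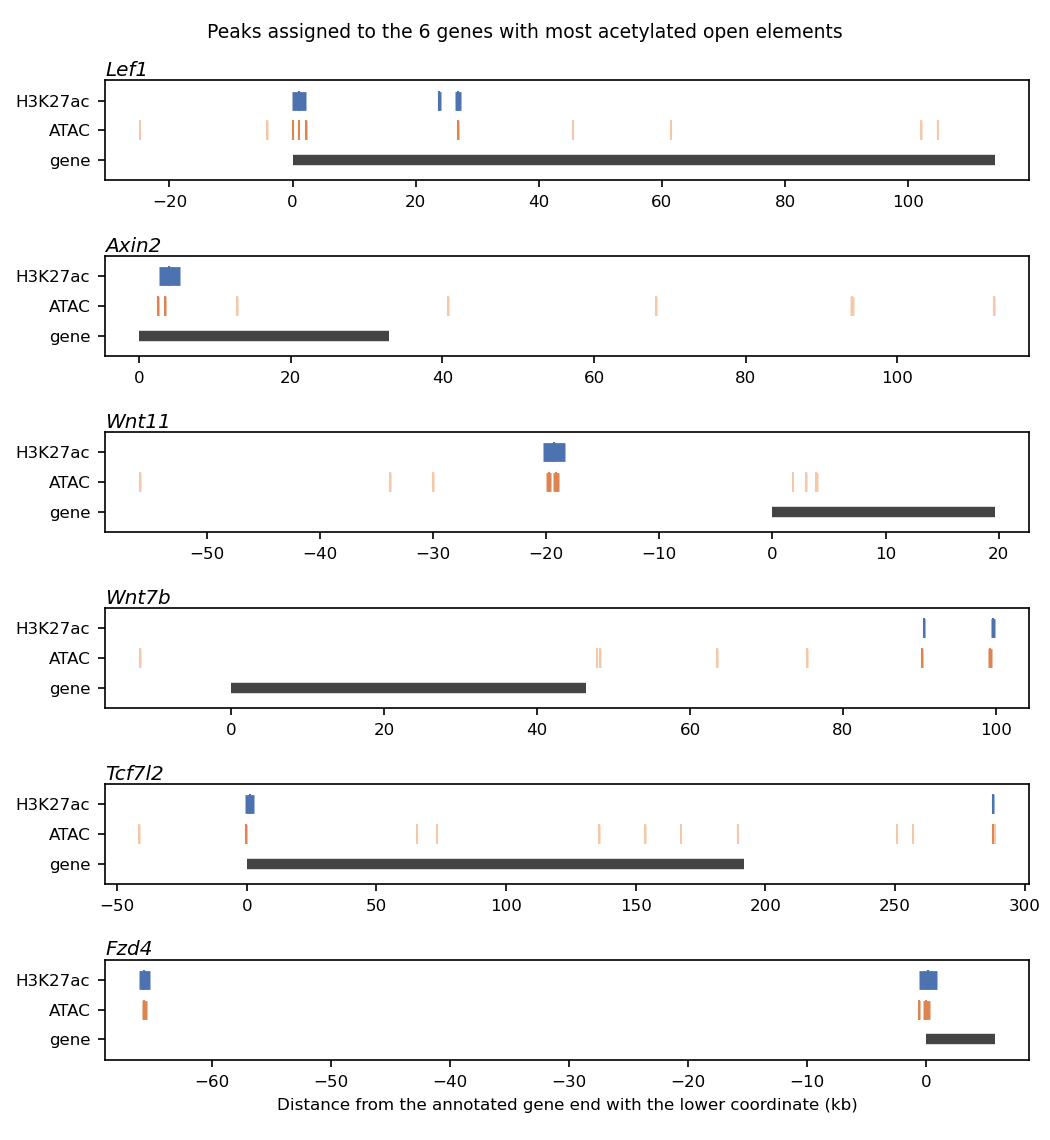
Position of the ATAC and H3K27ac peaks counted for the 6 genes with most acetylated open elements (x axis, kb from the annotated end with the lower coordinate; each panel has its own scale), with the gene as a dark bar. ATAC peaks that overlap H3K27ac are dark orange and others pale, and narrow peaks are drawn wider than scale. Lef1, Tcf7l2 and Fzd4 have H3K27ac at an end, Axin2 just inside it, and Wnt11 and Wnt7b outside the gene.

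Other genes of the pathway, from a list of 59, were open at an end in 51 cases and acetylated there in 38, against 60.4% and 49.3% of all genes. Shares in lists of this size move by much with a single gene, and 4 of 9 or 2 of 5 are near that of all genes. Both numbers include genes with many functions beyond Wnt. Among the carriers of the signal in the cytoplasm, 13 of 17 had H3K27ac, with peaks of 2370 bp at Ctnnb1, which encodes β-catenin, and 4485 bp at Gsk3b, the kinase that marks it for destruction. Of 8 nuclear cofactors 7 were acetylated, and the Groucho-type corepressor Tle3 had a peak of 13364 bp. Planar polarity genes were acetylated in 7 of 9 cases. Of 9 membrane regulators 6 carried the mark, among them the R-spondin receptors Lgr4 and Lgr5. In the group of secretion and agonists 2 of 7 were: Porcn and Wls, which lipidate and export Wnt proteins. The secreted agonists Rspo1, Rspo2, Rspo3 and Rspo4 were not, nor was Notum. Other secreted inhibitors were acetylated in 2 of 5 cases, Draxin and Frzb, and common target genes in 4 of 9, Myc, Lgr5, Nkd1 and Znrf3.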

How the data were processed

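The authors deposited 1 consensus list of peak coordinates per assay, with no score or signal, so depth is unknown. Per the submitters' processing notes, cutadapt 1.18, Bowtie2 2.3.5.1, MACS2 and bedtools were named, with the mm10 build. How the authors formed the consensus and set thresholds is not given in the sources used here, and input DNA was not analysed here. Peaks on the assembled chromosomes were used (43652 of 43739 ATAC and 19924 of 19928 H3K27ac) and are printed counted from 1. Gene spans, and starts for 33 of the 47 members, came from RefSeq tables of GRCm38.p6, the assembly behind mm10; with no genome sequence or transcripts, exons and introns were not assigned. Overlap means at least 1 shared bp. The assigned gene of a distal element is the one with the nearest annotated end within 100 kb, which need not be the gene it acts on. Genes were scored in Python 3.11.15 with numpy 2.4.6 and pandas 2.3.3, and the scoring was tested on planted peaks.

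Members and lists were chosen with earlier results of these data known. Genes named were those with H3K27ac at an end, with acetylated elements, ligands with ATAC at an end, and receptors without it; the 6 members with most acetylated elements (ties by H3K27ac bp) were described in full. Other genes and peaks were singled out after their values were seen. The plan held no test: shares are set beside all genes. Settings varied were the window, list, overlap, distance and definition of ends.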

Additional observations from a re-analysis of the deposited data

How the results depend on the processing

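The difference between receptors and ligands kept its direction for both marks under every alternative run: windows of 0.5 and 2.5 kb, the wider 50% of each list, starts only, genes with ends over 2 kb from other genes, Frizzled genes only, and ends or starts, the last chosen after seeing the data. It ranged from 61.4 to 82.2 points for H3K27ac and from 15.8 to 63.2 points for ATAC. With a window of 2.5 kb, ATAC lay at 93.6% of members and 84.2% of ligands, against 66.2% of all genes. ATAC at ligands fell to 36.8% with 0.5 kb (all genes 56.5%) and 42.1% with the wider 50% of peaks (all genes 54.3%). With the wider 50% of each list, H3K27ac lay at 27.7% of members, against 32.5% of all genes. Under that setting 5 acetylated elements were counted for members, 2 of them distal to ligands, and 0 distal to receptors. The 2 distal elements of receptors were 1 within 50 kb, 5 within 500 kb, 1 with 50% of the ATAC peak covered and 1 outside every gene. Within 500 kb ligands had 6, so the higher count per gene passed to the receptors. No other count moved by over 1.5 times and no other share left its 95% Wilson interval. That interval treats genes as independent, which neighbouring Wnt genes are not, and it is wide at these numbers. The fall of open ligands from 57.9% to 36.8% stayed within it, so it marks large moves only. No paired analysis was possible because the deposited lists pool the replicates, and no replicate could be left out.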
